A study of Homo sapiens with 6 samples.

Results

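The insulin-like growth factor (IGF) binding proteins were measured in pLUM and pLB cells, a pair of lines derived from the T47Dco breast cancer line. The members were all array spots that carry the gene name of IGFBP1 to IGFBP7 and are not controls. They came to 7 genes of 25940 gene names on the array, each with 1 probe. pLUM (pure luminal) and pLB (pure luminobasal) were each profiled on 3 one-colour Agilent arrays, 6 in all. pLUM came from a mouse xenograft tumour grown under estradiol (E) and were selected as claudin-3 positive, CD49f negative cells after about 2 months of culture in 1 nM E. They were treated with 1 nM E for 72 h before RNA was taken. pLB came from a xenograft tumour grown under E plus progesterone and were selected as claudin-3 negative, CD49f positive cells after about 2.5 months of culture without E, a state the study calls estrogen withdrawn (EWD), in which they were also profiled. Both lines were recultured for about 2 months and sorted again, were kept in 5% charcoal-stripped serum, and were stained for cytokeratin 5 (CK5) and sorted once more before extraction. Each line is a single derivation, so line, tumour of origin and E supply cannot be told apart, and the p-values measure the spread between the 3 sorts of a line.

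IGF binding proteins are secreted proteins that hold IGF1 and IGF2 outside the cell. They carry the ligands, keep them from the type 1 IGF receptor, and release them when proteases cut the binding protein. IGFBP1 to IGFBP6 bind IGFs tightly, whereas IGFBP7 binds them weakly and is also known as a matrix protein of vessels and epithelia. In estrogen receptor-positive breast cancer cells IGFs act as mitogens, and several of the binding proteins also bind integrins, matrix or nuclear partners without an IGF.

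Of the 7 binding proteins, 5 were higher in pLB and 1 was lower. IGFBP2, IGFBP3, IGFBP4, IGFBP6 and IGFBP7 were the higher genes, IGFBP5 was the lower gene, and IGFBP1 was not well above background on any of the 6 arrays. A gene was called where limma gave at least a 2-fold difference with an adjusted p under 0.05. By that rule, 22.7% of the 17667 genes tested were called higher in pLB and 23% were called lower. IGFBP3, IGFBP6 and IGFBP7 entered the test only through pLB, since no pLUM array was well above background for them, and of the 718 genes tested in that way 97.9% were called higher. Their calls therefore say little beyond their detection in pLB. IGFBP2, IGFBP4 and IGFBP5 were well above background on all 6 arrays. Among the 14712 genes of that kind, 20.6% were called higher and 20.5% were called lower. The arrays of the lines did not overlap for any of the 6 tested members, as held for 69.2% of all genes tested. An exact two-sided permutation test of 3 arrays against 3 cannot give less than 0.1, which is the value each of the 6 gave.

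**Figure D1:**
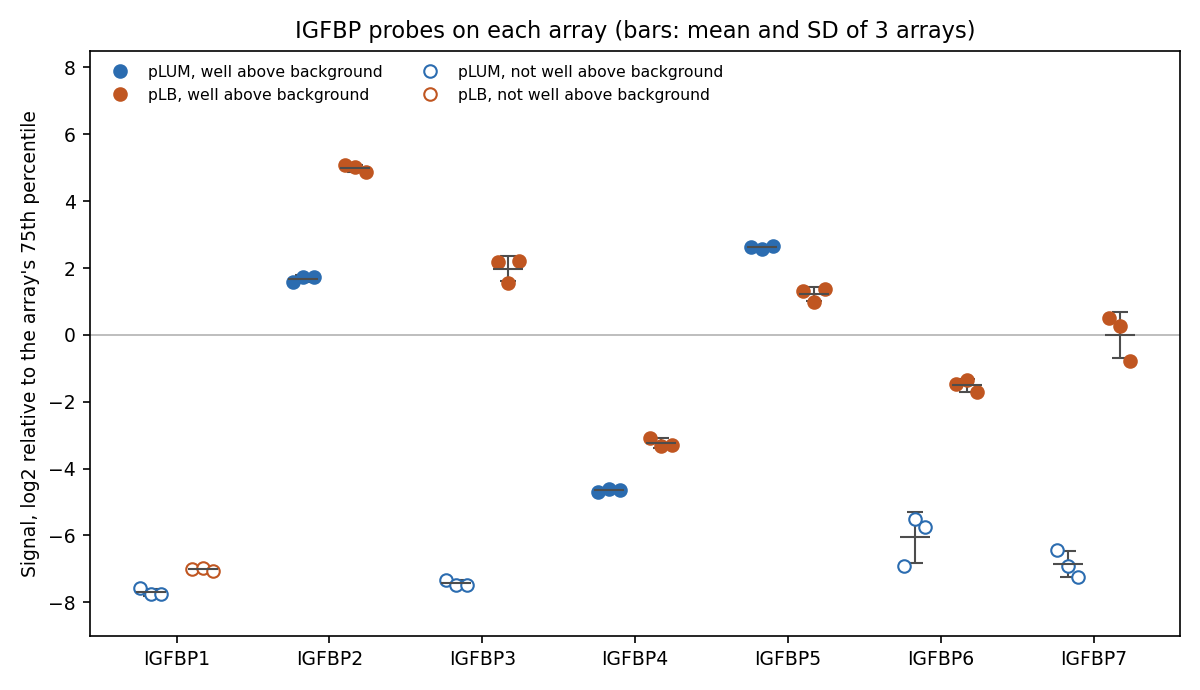
Signal of each IGFBP probe on each array, in log2 relative to the array's 75th percentile, with the mean and SD of the 3 arrays of a line. Open circles are arrays on which the probe was not well above background, which holds for IGFBP1 on all 6 arrays and for IGFBP3, IGFBP6 and IGFBP7 on the 3 pLUM arrays. Heights of different probes are not comparable.

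Values are given as log2 of the processed spot intensity relative to the 75th percentile of the array. They compare a probe between arrays, and not one gene with another. The probes are 60 bases long, share no run of 15 bases with each other, and are placed by the files on hg19. Whether a probe lies in coding or untranslated sequence was not determined, since an hg19 annotation was not used here. The first 30 bases of the probes of the adjacent pair IGFBP2 and IGFBP5 and of the members with the largest lower bounds, IGFBP3 and IGFBP7, are shown because the values below are what hybridised to them.
IGFBP2 probe: ggagggggaagagaaatttttatttttgaa
IGFBP5 probe: ccacagtacatattactgtagttctctata
IGFBP3 probe: agcctccacattcagaggcatcacaagtaa
IGFBP7 probe: acctccagaatattattagtctgcatggtt

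IGFBP2 is a carrier of IGF1 and IGF2 that also binds the integrin ITGA5/ITGB1 through an RGD motif. Like IGFBP3, it was read by 10 spots on each array. In pLUM it gave 1.57, 1.74 and 1.74, and in pLB 5.07, 5.02 and 4.87. All 3 pLB arrays were above all 3 pLUM arrays, and the arrays of a line lay within 0.20 of each other. The log2 difference was 3.30 ± 0.16 (SE, n = 3 arrays per line), with a 95% confidence interval of 2.94 to 3.67, or 9.87-fold (adjusted p = 3.8e-06, limma). In raw terms the probe held 1411 to 1886 intensity units in pLUM and 13157 to 29277 in pLB, and the difference was 3.32 with normexp, another background correction. The probe lies on chr2:217529086-217529145 (plus strand).

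IGFBP5, a binding protein found in bone, muscle and mammary epithelium, went the other way. pLUM gave 2.64, 2.56 and 2.64, and pLB gave 1.31, 0.98 and 1.38. The difference was -1.39 ± 0.17 (SE, n = 3 arrays per line), with a 95% confidence interval of -1.80 to -0.99, so that IGFBP5 was 2.62-fold lower in pLB (adjusted p = 0.00034, limma). pLB kept a strong signal, at 1175 to 2164 intensity units against 2969 to 3540 in pLUM. IGFBP5 was reduced in pLB and still detected there on all 3 arrays. Its probe is at chr2:217537167-217537226 on the minus strand, 8.021 kb from that of IGFBP2, and these neighbours differed in opposite directions.

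IGFBP4, which binds both IGFs and is the classical substrate of the metalloproteinase PAPPA, is known as an estrogen-induced gene of breast cancer cells. It was dim in both lines. In pLUM it gave -4.71, -4.61 and -4.65, and in pLB -3.08, -3.33 and -3.30. The lines did not overlap, and the difference was 1.42 ± 0.16 (SE, n = 3 arrays per line), with a 95% confidence interval of 1.05 to 1.79, or 2.68-fold higher in pLB (adjusted p = 2e-04, limma). The spots behind these values held only 18.2 to 23.0 intensity units in pLUM and 45.7 to 103 in pLB. With normexp on the mean and local background signals, the difference was 0.10 and was not called (adjusted p = 0.82, limma). Normexp was run with an offset of 50 units, more than these pLUM spots held, which by itself shrinks log2 differences between dim spots. The higher level of IGFBP4 in pLB was thus not kept, and the subtraction and the offset cannot be told apart. The probe lies on chr17:38613308-38613367 (plus strand).

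IGFBP3, the main IGF carrier of serum, which forms a ternary complex with an IGF and the acid-labile subunit, had the largest lower bound of the family. In pLB it gave 2.19, 1.54 and 2.21, and all 10 of its spots were well above background on each array. In pLUM it gave -7.33, -7.48 and -7.47, values at the bottom of the scale where arrays have no order. The median spot in pLUM replicate 2 held 2.87 intensity units, while a single spot of the 10 there stood at 83.7 and was left out because the files flag it as an outlier. Against the lowest signal counted as well above background on each pLUM array, IGFBP3 was at least 163-fold higher in pLB. The adjusted p of 3.3e-07 (limma) belongs to the fitted difference of 9.40, which uses the dim pLUM values, and not to this bound. The probe is at chr7:45952608-45952667 on the minus strand.

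IGFBP7, a secreted protein also known from vessel walls, had the next largest. pLB gave 0.52, 0.27 and -0.79, and pLUM gave -6.45, -6.91 and -7.23. pLB replicate 3 was the lowest pLB array, and the pLB arrays spanned 1.31 log2 units, the widest spread in pLB of any member. The difference was still far larger than that spread, and IGFBP7 was at least 41.2-fold higher in pLB (adjusted p = 7.2e-06 for the fitted difference, limma). Its spot held 259 to 1249 intensity units in pLB and 3.76 to 5.43 in pLUM. The probe is at chr4:57897423-57897482 on the minus strand.

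IGFBP6, which prefers IGF2 over IGF1, gave -1.47, -1.34 and -1.72 in pLB and -6.93, -5.51 and -5.74 in pLUM. pLUM replicate 1 was the lowest, but none of the 3 pLUM arrays was well above background, so the spread of 1.42 within pLUM carries no order. IGFBP6 was at least 14.5-fold higher in pLB (adjusted p = 4.3e-05 for the fitted difference, limma). The probe is at chr12:53494853-53494912 on the plus strand.

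IGFBP1, an insulin-regulated binding protein made chiefly by liver and decidua, lies at chr7:45932966-45933025 on the plus strand, 19.58 kb from the probe of IGFBP3. It gave -7.58, -7.76 and -7.76 in pLUM and -7.00, -6.96 and -7.06 in pLB, at 2.49 to 6.84 intensity units. No array was well above background, so IGFBP1 was not tested and has no fold. Of this pair of neighbours on chromosome 7, IGFBP3 was thus detected in pLB and IGFBP1 in neither line.

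**Figure D2:**
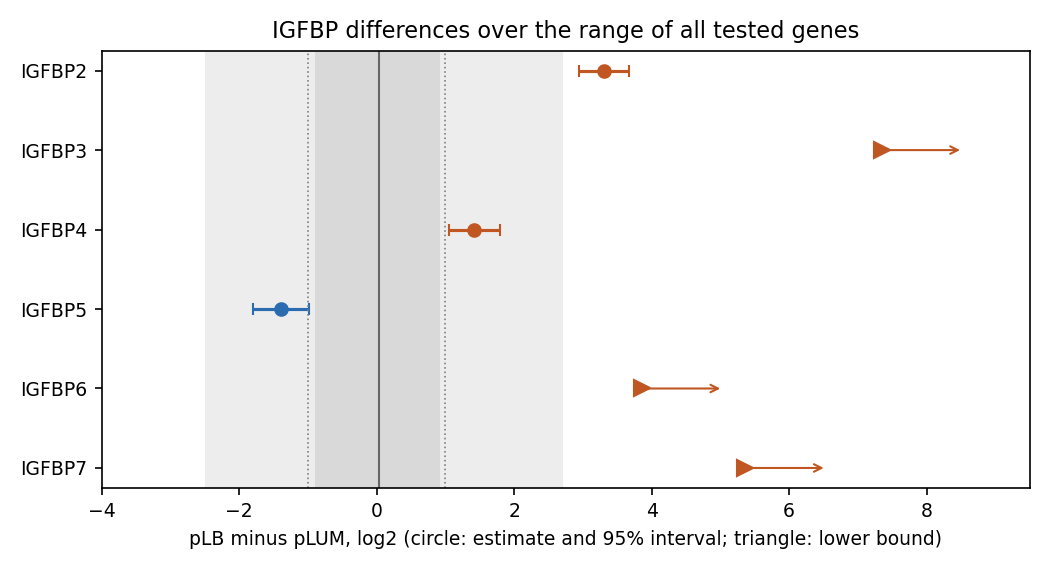
Difference between pLB and pLUM for the 6 tested IGFBP genes, in log2, with 95% confidence intervals as bars and triangles with arrows for lower bounds. The dark and light grey bands hold the middle 25th to 75th and 5th to 95th percentiles of all 17667 tested genes, the solid line their median of 0.03, and the dotted lines 2-fold. IGFBP2, IGFBP3, IGFBP6 and IGFBP7 lie to the right of the light band, and IGFBP4 and IGFBP5 lie inside it.

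Set against all genes tested, whose median difference was 0.03 with 5th and 95th percentiles of -2.49 and 2.70, IGFBP4 and IGFBP5 differed by amounts that many genes reached. IGFBP2 exceeded 96.7% of all genes tested. The lower bounds of IGFBP3, IGFBP7 and IGFBP6 exceeded the values of 99.7%, 99.1% and 97.7% of them. The median over the 6 tested members was 3.58, a value that includes the 3 genes that could only be found higher.

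pLUM replicates 1 to 3 and pLB replicate 1 were on one slide, whereas pLB replicates 2 and 3 were on another, and the scans divided in the same way. Within the first slide, where pLB replicate 1 stands against the 3 pLUM arrays, IGFBP2 differed by 3.39, IGFBP4 by 1.58 and IGFBP5 by -1.31. The lower bounds there were 7.56 for IGFBP3, 3.90 for IGFBP6 and 5.88 for IGFBP7. With slide as a block all 6 members kept their call in limma, the highest adjusted p being 0.0056 for IGFBP5. That fit sets the 1 pLB array of the first slide against pLUM and assumes that it varies like the other arrays. With normexp and its offset of 50, IGFBP5 differed by -1.25. The bounds of IGFBP3, IGFBP6 and IGFBP7 came down to 4.64, 1.49 and 2.55. All of these, IGFBP5 included, were still called (adjusted p of at most 0.0074, limma). Over all probes tested, arrays correlated at 0.984 to 0.991 within pLUM, 0.972 to 0.989 within pLB and 0.78 to 0.806 between lines.

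**Figure D3:**
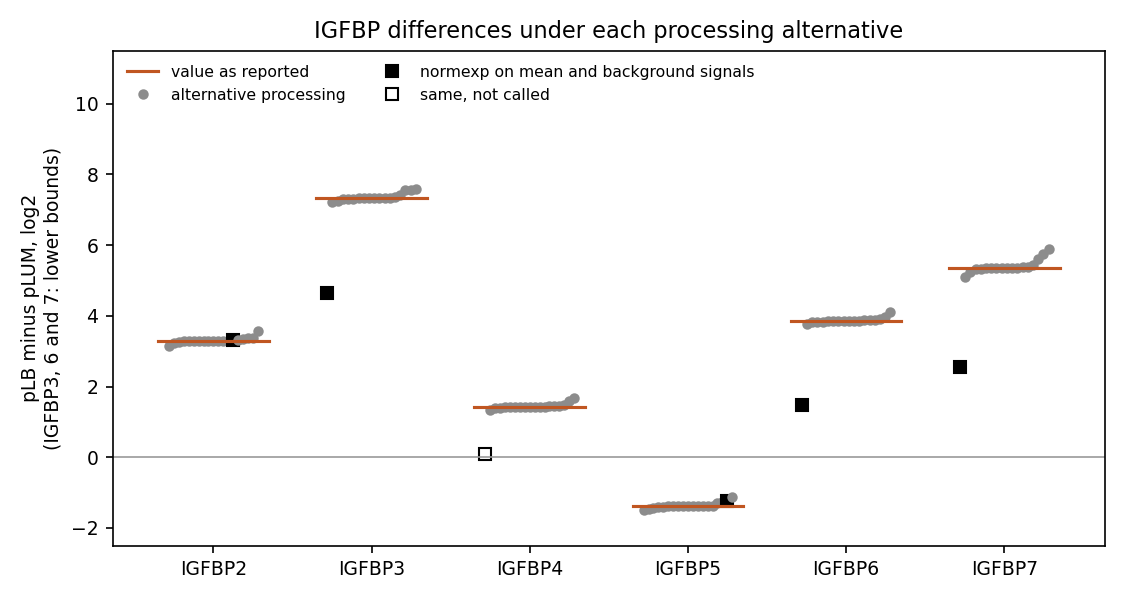
Log2 difference between pLB and pLUM for each tested IGFBP gene as reported (line) and under each alternative processing (circles), with normexp background correction as squares. IGFBP3, IGFBP6 and IGFBP7 are lower bounds. IGFBP4 falls to 0.10 under normexp, where it is not called, and the bounds of IGFBP3, IGFBP6 and IGFBP7 fall to 4.64, 1.49 and 2.55.

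The cells carried the marker genes of their names. Of 8 luminal markers, 7 were lower in pLB by their brightest probe, KRT18 being the exception. Of 8 luminobasal markers all 8 were higher. JAG1, KRT5, SNAI2 and TP63 entered the test only through pLB and could only be called higher. PGR entered only through pLUM and could only be called lower. Among all genes tested, 22.7% were called higher and 23% lower. The probes of KRT8 disagreed, since its brightest was called lower, at -1.26 on the log2 scale, and another was called higher, at 1.89. CLDN3 (claudin-3), ITGA6 (CD49f) and KRT5 (CK5), which are among these markers, were used to sort the cells and are no independent check. The other markers are among those the study listed for these lines, so they are no independent check either. CD44 and Notch-1, also listed there, were not read here. Because IGFBP3, IGFBP6 and IGFBP7 are also genes of fibroblasts and vessels, markers of other cell types were read beside them. In bulk RNA, fewer cells of a type and less RNA per cell cannot be told apart. The summed level of 7 fibroblast markers, in multiples of the array's 75th percentile, was 0.776 to 0.972 in pLUM and 1.26 to 1.80 in pLB. COL1A2 and THY1 were higher in pLB, by at least 11.4-fold and 22.7-fold (adjusted p = 9.4e-07 and 3.9e-06 for the fitted differences, limma), whereas COL1A1 was not called. COL1A2 and THY1 entered the test only through pLB and could only be called higher, so their calls say little beyond their detection in pLB. The defining fibroblast genes DCN, LUM, COL3A1 and PDGFRB were not detected well enough to be tested. The summed level of 4 endothelial markers was 0.0728 to 0.108 in pLUM and 0.0933 to 0.206 in pLB, with PECAM1 and KDR not tested and VWF called higher (at least 1.79-fold). VWF, too, entered the test only through pLB and could only be called higher, and its bound is under 2-fold. The summed level of 3 immune markers was 0.140 to 0.233 in pLUM and 0.158 to 0.269 in pLB, with CD68 called higher (2.87-fold) and CD3E not tested. PTPRC was not called by its brightest probe, with a log2 difference of -0.47, and was called lower by its other probe, at -1.21. The part of other cells in the IGFBP levels was not tested.

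RefSeq promoter sequence, 250 bases before the annotated start on GRCh38.p14, was at hand for IGFBP2, IGFBP3, IGFBP4, IGFBP5 and IGFBP6. Those of IGFBP2 and IGFBP5 are shown because these neighbours differed in opposite directions, and that of IGFBP3 because it had the largest lower bound. Capitals mark every match, on either strand, to the core promoter box spelled TATAAA, the GC-rich box spelled GGGCGG, the estrogen response element half-site spelled AGGTCA, the AP-1 site spelled TGACTCA or the E-box spelled CACGTG. None of the matches overlapped another.
IGFBP2, chr2:216632578-216632827, plus strand: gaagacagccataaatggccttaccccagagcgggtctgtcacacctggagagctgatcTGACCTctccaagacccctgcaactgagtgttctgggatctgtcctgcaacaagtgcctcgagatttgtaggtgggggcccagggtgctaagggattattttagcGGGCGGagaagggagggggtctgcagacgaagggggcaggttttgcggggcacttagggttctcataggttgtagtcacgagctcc
IGFBP5, chr2:216695550-216695799, minus strand: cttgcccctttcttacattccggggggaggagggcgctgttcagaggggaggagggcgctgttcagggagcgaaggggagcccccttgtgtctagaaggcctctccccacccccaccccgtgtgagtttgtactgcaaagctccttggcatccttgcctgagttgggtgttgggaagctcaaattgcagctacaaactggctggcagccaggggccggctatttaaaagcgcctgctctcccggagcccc
IGFBP3, chr7:45921273-45921522, minus strand: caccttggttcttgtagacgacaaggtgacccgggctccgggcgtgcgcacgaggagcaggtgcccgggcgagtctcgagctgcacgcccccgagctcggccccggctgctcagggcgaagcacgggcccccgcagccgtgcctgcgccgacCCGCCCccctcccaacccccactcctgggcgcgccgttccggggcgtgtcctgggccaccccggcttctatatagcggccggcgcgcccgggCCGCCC
The IGFBP2 promoter held a GC-rich box 86 bases and an estrogen response element half-site 191 bases before the start. That of IGFBP3, with a G+C content of 76%, held GC-rich boxes 98 and 6 bases before it, and that of IGFBP5, at 61.2%, held none of the 5 motifs. Of those not shown, IGFBP4 had the core promoter box at 29 bases and a GC-rich box at 83, and IGFBP6 had a GC-rich box at 17. Among 35116 promoters of the same length, 10.7% held the core promoter box, 42.6% the GC-rich box, 12.1% the half-site, 4.2% the AP-1 site and 6.34% the E-box. A match is a description of the letters and not a site of binding.

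The genes that the binding proteins act with were followed in a list of 56 genes in 4 parts, of which 42 were tested. Of these, 24 were higher in pLB, 3 were lower and 15 were not called, and the median difference was 1.13 against 0.03 for all genes. The count includes 9 genes that could only be found higher, and IGFALS, which could only be found lower. Of the 25 that were well above background on all 6 arrays, 14 (56%) were higher and 2 (8%) were lower, where all genes of that kind gave 20.6% and 20.5%. The list was chosen with earlier results of these data known, so these shares describe it and are no test of the pathway.

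Among ligands, receptors and adaptors, 9 of 11 were tested, of which 5 were higher and 1 was lower. Of the 7 well above background on all 6 arrays, 5 were higher and none was lower, where all genes of that kind gave 20.6% and 20.5%. IGF2, the fetal growth factor for which IGFBP6 has its preference, gave -2.28, -1.96 and -1.91 in pLUM and 6.03, 5.70 and 5.95 in pLB. That is 246-fold, a log2 difference of 7.94 (adjusted p = 3.1e-07, limma). Its other tested probe was also called higher, but with a much smaller log2 difference of 2.48. IRS2, an adaptor of the IGF and insulin receptors, was 23.0-fold higher and IGF2R, the receptor that clears IGF2, 3.48-fold. IRS1 was 3.32-fold higher by its brighter probe, whereas its other probe gave a log2 difference of -0.27 and was not called. IGF1R, the receptor that transmits the IGF signal, was 2.22-fold higher, with pLB values of 1.81, 1.34 and 2.52 and pLUM values of 0.90, 0.77 and 0.54. Without pLB replicate 3 its log2 difference was 0.84, under 2-fold, and with slide as a block it was 1.07 (adjusted p = 0.08, limma), so that it lost its call in both. IGFALS, the acid-labile subunit that completes the serum complex of IGFBP3 and IGFBP5, was at least 12.2-fold lower in pLB. Its arrays gave -1.48, -1.82 and -1.75 in pLUM and were not well above background in pLB. IGFALS thus entered the test only through pLUM and could only be called lower. IGF1, INS and INSR were not called.

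Among 20 enzymes and regulators linked to cleavage of the binding proteins, 14 were tested, of which 8 were higher and 1 was lower. The 8 include 4 that entered the test only through pLB and could only be called higher. Of the 6 well above background on all 6 arrays, 4 were higher and 1 was lower, where all genes of that kind gave 20.6% and 20.5%. PLAU, the urokinase that activates plasmin, was 233-fold higher, with pLUM at -3.07, -3.15 and -2.91 and pLB at 4.93, 5.03 and 4.50. HTRA1, a serine protease that cuts IGFBPs, was 170-fold higher, with pLUM at -3.83, -3.73 and -3.52 and pLB at 3.78, 3.72 and 3.64. For both enzymes the arrays of a line lay close together and the lines far apart (adjusted p = 3.9e-07 for PLAU and 2.8e-07 for HTRA1, limma). MMP1 was at least 34.2-fold, STC1 at least 2.95-fold, CTSD 2.43-fold, MMP9 2.35-fold and PAPPA2 at least 2.10-fold higher. ADAM28 was called, although its bound of at least 1.49-fold is under 2-fold. PAPPA, which cuts IGFBP4 and IGFBP5, was the gene that was lower, by 3.51-fold, at -2.43, -2.56 and -2.81 in pLUM and -4.32, -4.82 and -4.10 in pLB (adjusted p = 0.00039, limma). Its inhibitor STC2, at -1.09 to -0.96 in pLUM and -2.22 to -1.84 in pLB, stopped just short of the 2-fold rule (adjusted p = 0.0015, limma). The dim genes ADAM28, MMP9, PAPPA2 and STC1 were no longer called with the normexp correction, and ADAM28 also lost its call with slide as a block and without pLUM replicate 2 or 3.

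Among 9 other proteins with an IGFBP-type domain, 6 were tested, with 3 higher and 1 lower. The 3 include 2 that entered the test only through pLB and could only be called higher. Of the 4 well above background on all 6 arrays, 1 was higher and 1 was lower, where all genes of that kind gave 20.6% and 20.5%. The matricellular proteins CCN3, CCN2 and CCN1 were higher, by at least 46.6-fold, at least 4.84-fold and 3.72-fold. CCN2 was not called with normexp. CCN5, with a log2 difference of 0.99, stopped just short of the 2-fold rule (adjusted p = 0.009, limma). Over the alternatives CCN5 ranged from -0.07 to 1.43 and was called higher in several of them. IGFBPL1 gave -0.51 and was not called. KAZALD1, a secreted protein of the IGFBP superfamily, was 9.21-fold lower, with pLUM at 4.96, 4.84 and 4.95 and pLB at 1.58, 1.73 and 1.83 (adjusted p = 4.3e-06, limma). Its other probe was called lower too, but by less, with a log2 difference of -1.24 against -3.20. Among the 7 members and these 9 genes, KAZALD1 and IGFBP5 were thus the ones called lower in pLB.

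Among 16 receptors and binding partners, 13 were tested, of which 8 were higher and none was lower. The 8 include 3 that entered the test only through pLB and could only be called higher. Of the 8 partners well above background on all 6 arrays, 4 were higher and none was lower, where all genes of that kind gave 20.6% and 20.5%. The subunits of the integrin to which IGFBP2 binds were both higher, ITGA5 5.32-fold and ITGB1 4.89-fold. PTPRZ1, a receptor phosphatase bound by IGFBP2, was at least 18.2-fold higher, and CAV1, the caveolar coat protein linked to uptake of IGFBP3, at least 53.7-fold. FHL2, a partner of IGFBP5, was 8.15-fold higher by its brightest probe, while another of its probes was not called (log2 difference -0.25). LRP1, a clearance receptor of IGFBP3, was 6.08-fold higher by one probe and not called by another, at 0.39. KPNB1, the nuclear import factor that carries IGFBP3 and IGFBP5, was 2.16-fold higher. ITGA5 and LRP1 were not called with normexp, and KPNB1 was under 2-fold with quantile normalization, with slide as a block and without pLB replicate 3. The 5 partners not called went both ways. TMEM219 and TFRC gave log2 differences of -0.94 and -1.01, and RXRA, THBS1 and VTN gave 0.41, 0.71 and 0.90.

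**Figure D4:**
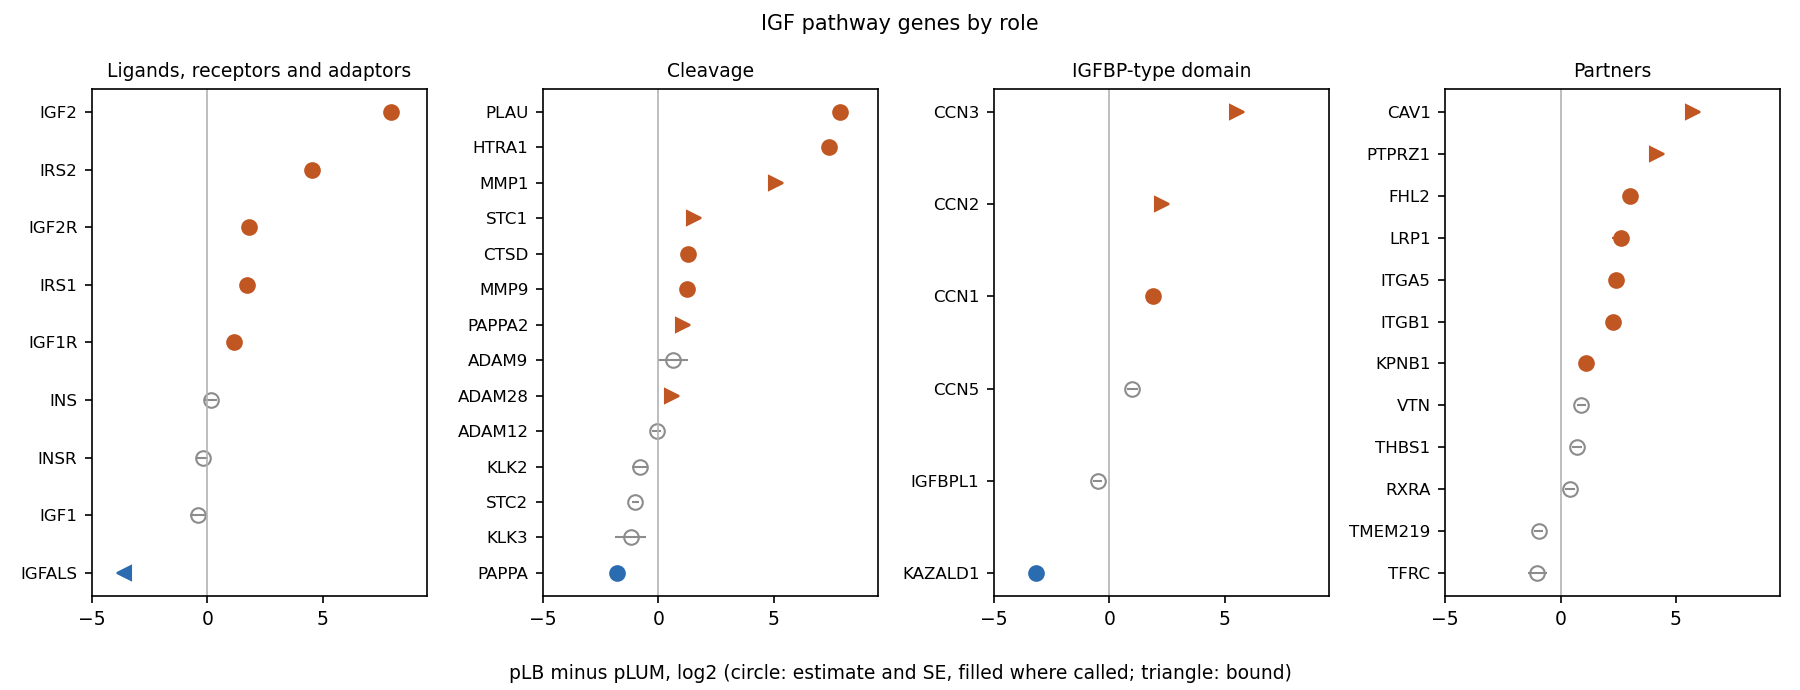
Log2 difference between pLB and pLUM of IGF pathway genes in 4 parts. Circles are estimates with their SE, filled where called, and triangles are bounds for genes that were not well above background in one line. IGF2, PLAU and HTRA1 lie furthest to the right, and IGFALS, KAZALD1 and PAPPA are the genes called lower.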

How the data were processed

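Cy3-labelled total RNA of the sorted lines was hybridised to 1-colour Agilent 4x44K arrays. The authors deposited the Agilent Feature Extraction 10.10.1.1 output of each array. The intensity used here is its processed signal per spot, from which the scanner software had already removed background and spatial trend, with no normalization between arrays. The sources used here do not state which CK5 fraction was hybridised.

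The deposited intensity was divided by each array's 75th percentile (475 to 566 in pLUM, 450 to 873 in pLB) and taken to log2. Control spots and the 296 to 387 outlier-flagged spots of an array were dropped, and the remaining spots of each probe were averaged. No spot was saturated. A probe was well above background on an array where at least 0.5 of its spots carried that flag, and was tested where this held on at least 3 of 6 arrays, which left 23099 of 34127 probes (21285 to 22775 detected per array). pLB was set against pLUM with lmFit and eBayes of limma 3.58.1 (R 4.3.3) and Benjamini-Hochberg adjustment over all tested probes, after a test on simulated data. A gene was represented by its tested probe with the highest mean. Calls and p-values used the fitted difference, also where a lower bound is printed. Where no array of a line was well above background, the fold is a lower bound, with each dim value raised to the lowest detected signal of that array. Dim spots carry large errors on the log scale after background subtraction, and the number of arrays limits the precision.

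Genes named are the 7 members, the called and defining genes of 4 IGF pathway lists, cell type markers and the genes closest in pattern. Pathway genes short of a call, or called only under an alternative, and genomic neighbours are outside this rule and were chosen after their values were seen. A gene of the partner list is counted but not reported here by name. The members and lists were chosen with earlier results of these data known. Replicate numbers were not used as pairs. Gene names and positions (hg19) are those of the files. Promoter sequences are from RefSeq (GRCh38.p14), whose gene table holds all 7 members. Alternatives covered background correction, scaling, filters, thresholds, the methods' test, the probe rule, blocks and leaving out each array.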

Additional observations from a re-analysis of the deposited data

How the results depend on the processing

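IGFBP2, IGFBP3, IGFBP5, IGFBP6 and IGFBP7 kept their direction and their call under every alternative that gave them a value, with log2 values of 3.15 to 3.56 for IGFBP2, -1.48 to -1.14 for IGFBP5 and bounds of 4.64 to 7.60 for IGFBP3, 1.49 to 4.11 for IGFBP6 and 2.55 to 5.88 for IGFBP7. The lowest of each bound came from normexp background correction. Their highest adjusted p was 0.019, for IGFBP5 with spike-in scaling, which moved the median gene by 0.25 toward pLB. IGFBP3, IGFBP6 and IGFBP7 could only be called higher, so their kept direction adds nothing to their detection in pLB. IGFBP4 fell to 0.0978 under normexp, where it was not called (adjusted p = 0.82, limma), so that 4 binding proteins were called higher in place of 5. With the test limited to probes detected on all 6 arrays, IGFBP3, IGFBP6 and IGFBP7 could not be tested, 2 binding proteins were called higher and 14 IGF pathway genes in place of 24. Normexp left 16. Without a fold threshold, 5 pathway genes were lower in place of 3. Leaving out each array in turn gave 3 to 6 lower pathway genes, with 6 without pLB replicate 1 (STC2, TFRC and TMEM219 added) and 5 without pLB replicate 3 (KLK2 and STC2 added), and 23 to 25 higher. Leaving out an array changed no IGFBP call, and without pLB replicate 3 the bound of IGFBP7 was 5.76. The filter on all 6 arrays removes by construction the genes detected in one line. The offset of 50 in normexp shrinks differences between dim spots by construction. How much of the normexp shifts came from it, and the cause of the other shifts, was not tested. Same-numbered arrays of the lines deviated from their line means with correlations of -0.265, -0.095 and -0.217, so the numbers do not pair the arrays. With replicate block the binding proteins gave the same values, 3.30 for IGFBP2, -1.39 for IGFBP5, 1.42 for IGFBP4 and bounds of 7.35, 3.86 and 5.36 for IGFBP3, IGFBP6 and IGFBP7, and it changed no call of an IGFBP gene and no count of pathway genes (24 higher, 3 lower). Signal over background limits IGFBP4, whose pLUM spots held 18.2 to 23.0 intensity units.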

Other observations

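The genes whose pattern over the 6 arrays lay closest to each binding protein were found by the root mean square distance between their log2 values after each gene was centred on its own mean. DLK2 and GALNT14 were closest to IGFBP2, at 0.037 and 0.059, among 112 of 13112 genes within 0.25. CXCL14, a chemokine, at 0.22 and ANXA1, annexin A1, at 0.42 were closest to IGFBP3, and CTSC, the protease cathepsin C, at 0.29 and OLFML2A at 0.40 to IGFBP7. CEACAM1, an adhesion protein, at 0.33 and XDH, xanthine dehydrogenase, at 0.34 were closest to IGFBP6. IGFBP4 and IGFBP5 had 1136 and 809 genes within 0.25, led by SWT1 (0.021) and FAM195B (0.045), so that their patterns were common ones. These distances rest on 6 arrays in 2 lines and mostly restate the difference between the lines. Only genes well above background on all 6 arrays were searched, and the pLUM values of IGFBP3, IGFBP6 and IGFBP7, which are not, enter their distances as measured.

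The tested genes beside the binding proteins on hg19 were listed after their values were seen. Of the 29 tested within 500 kb of IGFBP6, 7 were called higher and 6 lower, and of the 18 beside IGFBP4, 3 were higher and 3 lower, where 22.7% of all genes tested were called higher and 23% lower. TNS4, which codes for tensin-4, had its probe 18.79 kb from that of IGFBP4 and was higher in pLB, with a log2 difference of 5.95 (adjusted p = 8.3e-07, limma). POLR2B, a subunit of RNA polymerase II, had its probe 5.87 kb from that of IGFBP7 and gave -0.79, which was not called. XRCC5, the DNA repair protein Ku80, was within 500 kb of IGFBP2 and IGFBP5 and was higher, with a log2 difference of 2.34 (adjusted p = 9.2e-05, limma).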
